A study of Mus musculus with 6 samples.

Results

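The genes described here encode the proteins of the cytosolic ribosome, and they were followed in the lungs of mice that had received tumour cells with or without PD-L1. Members were the protein-coding genes of the count tables whose mouse symbol is Rpl or Rps with a number, optionally followed by 1 of the letters a, x, y or l and 1 further digit, and whose counts summed to at least 60 over all libraries. These were 75 of 35275 gene rows, 44 for the large subunit (Rpl) and 31 for the small subunit (Rps), and no fold change was used to choose them. The same symbols with too few counts were Rpl24 (54 counts in all, just outside the limit), Rpl3l (31 counts), Rpl39l (7 counts) and Rpl10l (0 counts). The member with the fewest counts was Rpl26, with 1323, followed by Rpl35 with 1882. All 75 members passed the filter on low counts and were tested.

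The organ was the whole lung of Balb/c mice, perfused with 20 mL of PBS and taken 7 days after 250000 4T1 cells had been given by tail vein. 4T1 is a murine breast cancer line that arose in the Balb/c strain and readily seeds the lung. The injected cells were unmodified (WT, 3 libraries) or PD-L1 knockouts (KO, 3 libraries). The labels give no age or sex, no edit of the host mice and no number of clones behind the KO cells, and lungs without tumour cells were not analysed here. In what follows, WT and KO stand for the libraries labelled so. The comparison asks how lung RNA differed between mice with KO and with WT tumour cells, and any other difference between the injected cells, or in tumour load, cannot be told apart from loss of PD-L1.

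The cytosolic ribosome is built from ribosomal RNA and a set of proteins that are needed in nearly equal numbers, so their genes are among the most highly and most evenly expressed genes of any tissue. Their mRNAs begin with a C and a run of pyrimidines, the 5′ terminal oligopyrimidine (TOP) motif, through which LARP1 and the growth-sensing kinase complex mTORC1 control their translation. Their transcription is constitutive and is known to involve ETS family factors, YY1 and MYC. Several ribosomal proteins that are not in ribosomes, such as Rpl5 and Rpl11, bind Mdm2 and thereby restrain the breakdown of p53. In a whole lung, RNA of these genes comes from every cell, and more cells of a ribosome-rich type cannot be told apart from more ribosomal protein RNA per cell.

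Start-site sequences were looked at first, since they are what the TOP and promoter motifs of this family are read from. RefSeq promoter sequences (GRCm38.p6, 250 bases before to 50 after the annotated start) were found for 56 of the 75 members and not for 19, among them Rpl36, Rpl32, Rps29 and Rpl23a. Below are the 80 bases around the start of 9 members whose values are described later, read 5′ to 3′ on the gene's strand, with position +1 at base 61. Rps27, Rpl37 and Rpl41 had the smallest p-values after the 2 members that passed the test, Rpl35, Rpl38, Rps28 and Rpl26 were among the 6 members that varied most among the WT libraries (the other 2, Rps29 and Rpl23a, had no sequence), and Rpl6 and Rps7 had the smallest fold changes. Capitals mark a match to CTCTTTC (a pyrimidine stretch of the TOP kind) or to CCGGAAG (the core bound by ETS family factors), on either strand.
Rps27 (chr3:90213629-90213708, minus strand): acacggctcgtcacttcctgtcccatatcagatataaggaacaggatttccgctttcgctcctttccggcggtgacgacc
Rpl37 (chr15:5116553-5116632, plus strand): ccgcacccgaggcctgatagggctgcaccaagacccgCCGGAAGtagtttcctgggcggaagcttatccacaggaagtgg
Rpl41 (chr10:128549149-128549228, minus strand): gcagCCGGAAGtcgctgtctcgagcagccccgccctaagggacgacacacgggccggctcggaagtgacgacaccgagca
Rpl35 (chr2:39005112-39005191, minus strand): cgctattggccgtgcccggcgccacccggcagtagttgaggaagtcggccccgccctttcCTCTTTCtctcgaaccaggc
Rpl38 (chr11:114668520-114668599, plus strand): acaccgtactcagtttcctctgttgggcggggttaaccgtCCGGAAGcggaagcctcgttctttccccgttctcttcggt
Rps28 (chr17:33824543-33824622, minus strand): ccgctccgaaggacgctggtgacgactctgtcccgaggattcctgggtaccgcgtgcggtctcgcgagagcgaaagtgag
Rpl26 (chr11:68901506-68901585, plus strand): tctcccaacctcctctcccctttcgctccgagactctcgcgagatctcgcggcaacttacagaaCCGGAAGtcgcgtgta
Rpl6 (chr5:121204441-121204520, plus strand): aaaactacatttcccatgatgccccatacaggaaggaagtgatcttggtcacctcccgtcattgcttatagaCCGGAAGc
Rps7 (chr12:28635934-28636013, minus strand): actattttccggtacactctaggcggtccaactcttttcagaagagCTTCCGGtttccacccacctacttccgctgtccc
CTCTTTC stood at +1 in Rpl35 and in none of the other windows printed, so these exact letters mark only 1 of the 9 starts. Rps27 and Rpl38 also began at +1 with a C and a run of pyrimidines, which the exact letters missed. Matches to CCGGAAG lay at -23 in Rpl37, -56 in Rpl41, -20 in Rpl38, +5 in Rpl26, +13 in Rpl6 and -14 (opposite strand) in Rps7. Over the full 300 bases, 67 regions of the 56 members were compared with 32851 promoter regions of all genes, on both strands. CTCTTTC was present in 31.3% of the members' regions and in 8.16% of all regions. CCGGAAG was present in 35.8% against 8.86%, CCATNTTG (the core bound by YY1) in 20.9% against 5.05%, and the E-box CACGTG (bound by MYC and others) in 11.9% against 7.15%. None of these 4 motifs is part of another. A match is only a run of letters, anywhere in the 300 bases, so CTCTTTC does not sort the members by a TOP start. The median log2 difference between KO and WT was 0.34 in the 18 members with CTCTTTC and 0.33 in the 38 without. For CCGGAAG the medians were 0.33 in 23 members and 0.34 in 33.

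The data were read counts per gene, with 14711459 to 16932114 counts and 17520 to 19156 detected genes per library. Values below are CPM, that is counts per 1000000 counts of the library, with library totals scaled by the TMM method, and a count of 0 allows, at 3 counts, up to 0.176 to 0.206 CPM (counting error only). The members together held 2.40, 2.12 and 2.47% of the counts of WT replicates 1, 2 and 3, and 2.58, 2.93 and 3.34% of those of KO replicates 1, 2 and 3. The share was 2.33 ± 0.188% in WT and 2.95 ± 0.377% in KO lungs (SD, n = 3 per group), and the groups did not overlap. KO replicate 1 lay close to WT replicate 3, while KO replicate 3 was highest. With 3 libraries against 3, an exact two-sided permutation test could not give a p below 0.1, and no test of the share was made.

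Rpl36 and Rpl32, 2 genes of the large subunit, rose in the lungs with KO cells, and none fell. Both calls were lost without any 1 of 4 of the libraries, and under offsets for gene length and GC content. Every one of the 75 genes had a positive log2 difference, against 51% of the 15191 genes tested, and the members' median was 0.34 (interquartile range 0.26 to 0.45, a 1.26-fold difference at the median) against 0.01 over all genes. The test was the edgeR quasi-likelihood F-test with Benjamini-Hochberg adjustment over all genes and a threshold of 0.05. By it 170 genes were higher (1.12% of all genes tested) and 51 lower (0.336%), together 1.45%. With 2 calls among 75 members, the call rule alone says little about the set beside that background. At an unadjusted p under 0.05, 48 members were higher, against a background of 8.29%, and no member was lower. At an adjusted p under 0.1, 9 members were higher, against 2.07% of all genes. In 32 members no KO library reached down to the WT range, against 10.3% of all genes, and the groups overlapped for the other 43. In 0 members the KO libraries were all below the WT range, against 9.4% of all genes.

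**Figure D1:**
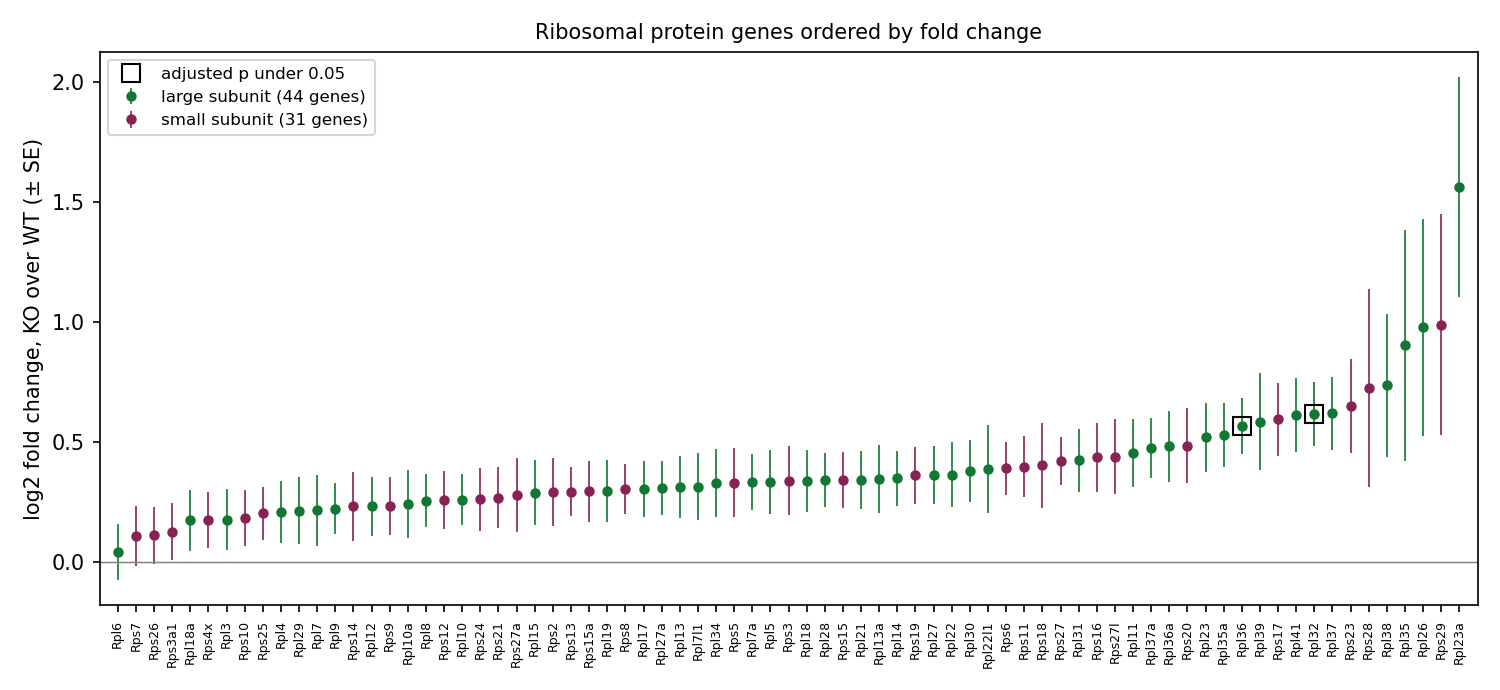
Log2 fold change (KO over WT, y axis) of each of the 75 ribosomal protein genes, ordered by this value along the x axis; points are edgeR estimates, bars are ± 1 SE, green is the large and purple the small subunit, and open squares mark the genes with adjusted p under 0.05. All points lie above 0, from 0.04 for Rpl6 to 1.56 for Rpl23a, and the genes at the right end have wide error bars.

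Rpl36, a small protein of the large subunit, is encoded on chromosome 17 (GRCm38, 56613416 to 56614243, plus strand). It was at 184, 155 and 205 CPM in the WT libraries and at 254, 285 and 267 CPM in the KO libraries. Every KO library was above every WT library, and the spread within each group was smaller than the gap between the means. The mean of Rpl36 rose from 182 ± 25.1 CPM in WT to 269 ± 16.0 CPM in KO (SD, n = 3 each), which is 0.56 ± 0.12 on the log2 scale (SE, edgeR adjusted p = 0.0325). Rpl32, another protein of the large subunit, is encoded on chromosome 6 (115805505 to 115808747, minus strand). Its values were 252, 224 and 302 CPM in WT and 338, 406 and 450 CPM in KO libraries. Here the lowest KO library stood only a little above the highest WT library. Rpl32 rose from 260 ± 39.7 to 398 ± 56.5 CPM, which is 0.62 ± 0.13 on the log2 scale (edgeR adjusted p = 0.0402). Exons of Rpl32 overlap the antisense gene Cand2, and without a stated strand setting reads of the pair cannot be told apart, although Cand2 had 755 counts in all against 30956 for Rpl32. Both calls were lost when WT replicate 1, WT replicate 2, KO replicate 2 or KO replicate 3 was left out, each of which left 0 members called. Calls over all genes fell as well, from 221 with every library to 33, 24, 25 and 40 in these fits. The loss was thus not particular to Rpl36 and Rpl32. Without WT replicate 3, 14 members passed, against a background of 1.2% of all genes called higher, and without KO replicate 1, 17 did, against 2.58%, Rpl36 and Rpl32 among them both times. The members' median lay between 0.23 and 0.42 over these 6 fits. Both calls also ended under offsets for gene length and GC content: Rpl36 was at 0.19 (exonic length) and 0.35 (coding length) on the log2 scale (edgeR adjusted p = 0.418 and 0.122), and Rpl32 at 0.34 and 0.42 (adjusted p = 0.192 and 0.111).

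The next members by p did not pass. Rps27, a zinc finger protein of the small subunit, was at 357, 315 and 350 CPM in WT and 443, 460 and 463 CPM in KO libraries. The KO libraries were tightly grouped and all above the WT libraries, with a log2 difference of 0.42 ± 0.10 (edgeR adjusted p = 0.0571). Rpl37, a zinc-binding protein of the large subunit, had 187, 155 and 248 CPM in WT and 266, 293 and 346 CPM in KO libraries, a log2 difference of 0.62 ± 0.15 (adjusted p = 0.0665). Rpl41, the shortest ribosomal protein, had 319, 260 and 411 CPM in WT and 445, 484 and 584 CPM in KO libraries, a log2 difference of 0.61 ± 0.15 (adjusted p = 0.0696). In all 3 of these genes the groups did not overlap, and WT replicate 2 was the lowest library.

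By subunit, the 44 large-subunit genes had a median log2 difference of 0.34, with 2 called, and the 31 small-subunit genes a median of 0.30. None of the small-subunit genes passed the edgeR test. At an unadjusted p under 0.05, 17 of them were higher, against 8.29% of all genes tested. DESeq2 called 4 small-subunit genes higher, against 367 of all 15191 genes, and limma-voom 1, against 154. The difference between the subunits was not tested.

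Several ribosomal proteins have roles outside the ribosome or in disease, and 4 were picked for these roles after their values had been seen. Rps6, the classical substrate of the S6 kinases downstream of mTORC1, was at 357, 362 and 393 CPM in WT and 423, 510 and 522 CPM in KO libraries, with no overlap and a log2 difference of 0.39 ± 0.11 (edgeR adjusted p = 0.105). Rps19, the gene most often mutated in Diamond-Blackfan anaemia, had 338, 270 and 360 CPM in WT and 388, 422 and 434 CPM in KO libraries. Its groups did not overlap either, and its log2 difference was 0.36 ± 0.12 (adjusted p = 0.163). The Mdm2-binding pair gave a looser picture. Rpl5 had 450, 399 and 467 CPM in WT against 457, 539 and 663 CPM in KO libraries, a log2 difference of 0.33 ± 0.13 (adjusted p = 0.254). Rpl11 had 311, 259 and 373 CPM against 364, 436 and 491 CPM, a log2 difference of 0.45 ± 0.14 (adjusted p = 0.142). In both, KO replicate 1 lay within the WT range.

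The members moved together from library to library. As log2 deviation from each gene's own mean over the 6 libraries, the members' median was -0.11, -0.33 and -0.06 in WT replicates 1, 2 and 3 and -0.004, 0.16 and 0.35 in KO replicates 1, 2 and 3. KO replicate 3 was the highest library for 69 members and KO replicate 2 for the other 6. WT replicate 2 was the lowest library for 57 members. All 75 members were above their own mean in KO replicates 2 and 3, 36 were in KO replicate 1, and 27 were in WT replicate 3. The libraries thus formed a graded series rather than 2 tight groups, with WT replicate 3 and KO replicate 1 next to each other. Short genes outside the family graded in a similar order, except that KO replicate 1 lay above KO replicate 2: those with a coding length up to 300 bases had median deviations of -0.08, -0.25 and -0.001 in the WT and 0.14, 0.09 and 0.18 in the KO libraries. Genes over 3000 bases ran the other way, with 0.15 in WT replicate 2 and -0.12 in KO replicate 3.

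**Figure D2:**
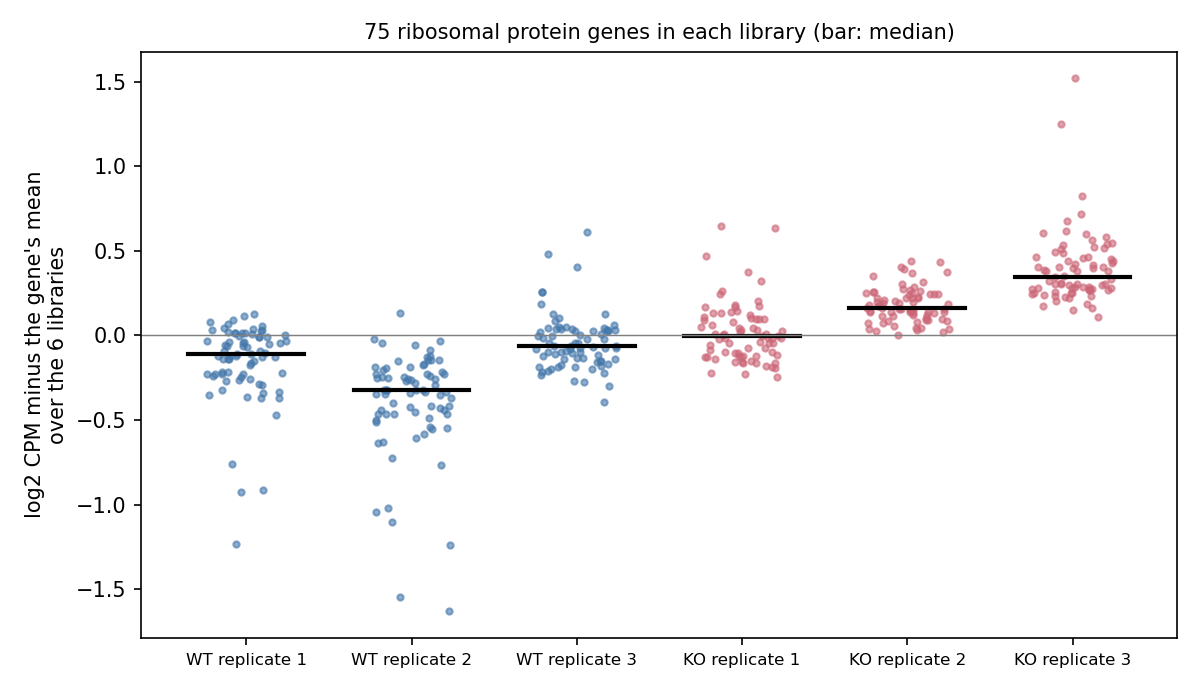
Log2 CPM of each of the 75 genes minus that gene's mean over the 6 libraries (y axis), by library (x axis); each point is 1 gene and each black bar the median of the library. The medians run from -0.33 in WT replicate 2 to 0.35 in KO replicate 3, and WT replicate 3 (-0.06) and KO replicate 1 (-0.004) lie side by side.

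The largest fold changes belonged to members whose WT libraries did not resemble each other. In 6 members the SD of log2 CPM among the WT libraries was above 0.6, a limit set after the values were seen. The median over all members was 0.19 in WT and in KO. Among the KO libraries 2 members were above that limit, Rpl23a (0.62) and Rpl26 (0.64). Rps29, a zinc-binding protein of the small subunit head, had 117, 93.5 and 292 CPM in WT and 343, 290 and 363 CPM in KO libraries. WT replicates 1 and 2 were low, and WT replicate 3 stood among the KO libraries. Rps28, a neighbour of the mRNA exit channel, had 83.0, 68.0 and 196 CPM in WT and 182, 186 and 205 CPM in KO libraries. Rpl38, known for its part in the translation of Hox mRNAs, had 111, 75.4 and 182 CPM in WT and 183, 197 and 233 CPM in KO libraries. Again WT replicate 3 was level with the KO libraries, and WT replicates 1 and 2 were not.

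WT replicate 3 was again the highest WT library in 3 large-subunit genes with few reads. Rpl35 had 7.35, 8.04 and 26.4 CPM in WT and 27.0, 20.5 and 30.6 CPM in KO libraries. Rpl26, which is also known to bind p53 mRNA, had 10.2, 3.87 and 14.4 CPM in WT and 15.0, 12.2 and 28.6 CPM in KO libraries. Rpl23a, which lines the exit of the nascent peptide tunnel, had 10.3, 6.69 and 20.3 CPM in WT and 27.1, 26.4 and 56.2 CPM in KO libraries. Only Rpl23a and Rpl38 of these 6 had groups that did not overlap. Rpl23a had the largest difference of all members, 1.56 ± 0.46 on the log2 scale, and it did not pass (edgeR adjusted p = 0.174). Rps29 had a difference of 0.99 ± 0.46 (adjusted p = 0.412), and the other 4 lay between 0.72 and 0.98. Other settings called some of the 6. Rpl23a was called by limma-voom (208 of 15191 genes called). With the replicate number as a block, Rpl23a, Rpl26 and Rpl38 were called (405 of 15191). With no filter on low counts all 6 were (803 of 21769). Without WT replicate 3, Rps29 passed with a log2 difference of 1.66 ± 0.15 (edgeR adjusted p = 0.00086), and Rps28, Rpl35, Rpl38 and Rpl23a passed as well at adjusted p of 0.00156, 0.00839, 0.0107 and 0.02. Rpl26 did not pass in that fit, at adjusted p = 0.167. With any other single library left out none of the 6 passed, and the differences were as low as 0.70 for Rps29, 0.45 for Rps28 and 0.48 for Rpl38 (without WT replicate 2), 0.60 for Rpl35 (without WT replicate 1), and 0.52 for Rpl26 and 1.11 for Rpl23a (without KO replicate 3). Of the 6, 3 overlap a gene on the other strand: Rps28 overlaps Kank3 (12746 counts, against 14400 for Rps28), Rpl35 overlaps Arpc5l (2922 counts, against 1882) and Wdr38 (44 counts), and Rpl23a overlaps Tlcd1 (606 counts, against 2321). In all, 17 members have exons that overlap another gene, 15 of them on the opposite strand, and the part of these overlaps in the results was not tested.

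**Figure D3:**
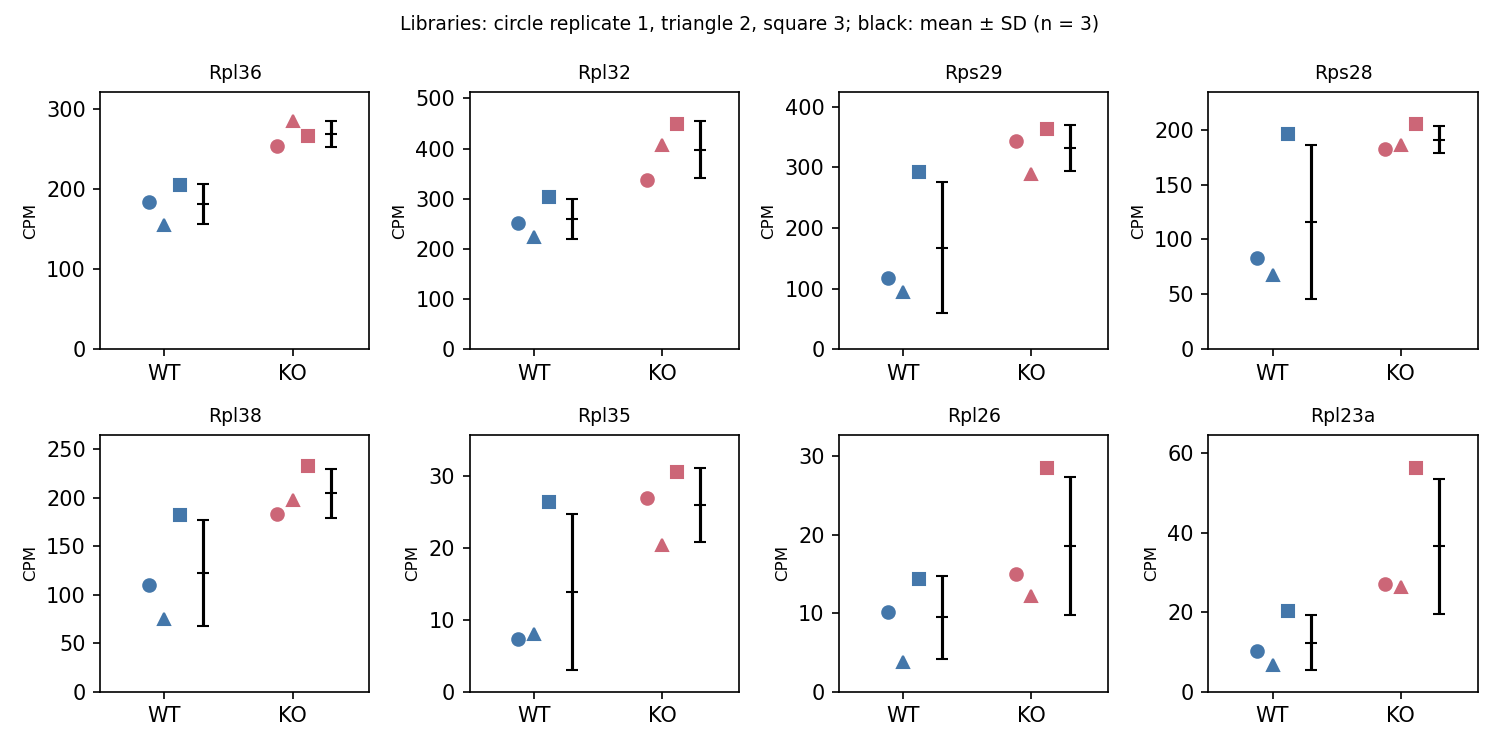
CPM (y axis, from 0) in each WT (blue) and KO (red) library for the 2 members that passed the test, Rpl36 and Rpl32, and for the 6 members with the widest WT spread; circle, triangle and square are replicates 1, 2 and 3, and the black mark and bar are mean ± SD (n = 3). In the wide members other than Rpl26, WT replicates 1 and 2 lie low and WT replicate 3 lies closer to the KO libraries, as for Rps29 with 117, 93.5 and 292 CPM. In Rpl26 WT replicate 2 (3.87 CPM) lies far below the KO libraries, while WT replicate 1 (10.2 CPM) lies near KO replicate 2 (12.2 CPM).

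At the other end, 3 members differed least. Rpl6 was at 536, 476 and 448 CPM in WT and 433, 519 and 549 CPM in KO libraries, a log2 difference of 0.04 ± 0.12 (edgeR adjusted p = 0.919). Rps7, which binds Mdm2, had 377, 327 and 307 CPM against 311, 358 and 420 CPM, a log2 difference of 0.11 ± 0.13. Rps26, part of the mRNA exit channel, had 222, 262 and 208 CPM against 219, 271 and 258 CPM, a log2 difference of 0.11 ± 0.12. The groups overlapped in all 3 of these genes. The sign of Rpl6 turned without WT replicate 3 (-0.02) or KO replicate 3 (-0.04), and that of Rps7 without KO replicate 3 (-0.01).

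Members differed more in level than in fold change. Per kilobase of coding length (the longest coding sequence of the main annotated transcript), the members' mean levels over the 6 libraries had a median of 715 CPM per kb. Rpl41, with a coding length of 75 bases, was highest at 5562 ± 1547 CPM per kb (SD over 6 libraries, n = 6). Counts were per gene and not per coding sequence, so a very short coding length raises this measure. Per kilobase of annotated exons Rpl41 was at rank 13, with 357 CPM per kb. By coding length Rpl41 was followed by Rps27 (1579 ± 258), Rps29 (1487 ± 689), Rpl13a (1383 ± 268) and Rps24 (1355 ± 227). The SDs of these followers overlap, but they pool both groups, and the order of the genes within single libraries was not tested. The place of Rps29 depended on the group, with 997 CPM per kb in WT, below Rpl13a (1218) and Rps24 (1234), and 1977 in KO, above Rps27 (1807). Rpl13a is also known for a role in interferon-gamma-dependent translational silencing, and Rps24 is another gene of Diamond-Blackfan anaemia. Lowest were Rpl35 (54.1 ± 27.2), Rpl23a (52.3 ± 37.6) and Rpl26 (32.3 ± 18.8), again with overlapping SDs. Ribosomal protein genes have many near-identical processed copies between which the authors' counting could split or lose reads. Per kilobase of annotated exons, which include long transcripts, the order was different: Rps15 (862 CPM per kb), Rpl36 (588), Rpl19 (527), Rps3a1 (520) and Rpl8 (493) led, and Rpl26 (9.72), Rpl35 (16.1) and Rpl7l1 (18.5) were lowest. The log2 differences of the 4 leaders not yet described were 0.34 for Rps15, 0.30 for Rpl19, 0.13 for Rps3a1 and 0.26 for Rpl8, none of which passed.

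The paralogs, copies that can replace or modify a standard ribosomal protein, had positive differences, as their partners did. Rps27l, known as a p53 target, was at 49.2, 41.1 and 47.8 CPM in WT and 54.7, 53.8 and 78.4 CPM in KO libraries, a log2 difference of 0.44 ± 0.16 beside 0.42 for Rps27. Its KO libraries all lay above its WT libraries, at a level of 215 CPM per kb of coding length against 1579 for Rps27. Rpl22l1 was at 31.2, 24.2 and 41.4 CPM in WT and 41.2, 37.3 and 47.9 CPM in KO libraries, a log2 difference of 0.39 ± 0.18 beside 0.36 for Rpl22, which had 102 and 576 CPM per kb. Rpl7l1, a nucleolar relative of Rpl7, was at 61.3, 63.1 and 48.6 CPM in WT and 63.1, 70.7 and 81.2 CPM in KO libraries. Its log2 difference was 0.31 ± 0.14 beside 0.21 for Rpl7, at 87.6 and 865 CPM per kb. Leaving out 1 library moved several of these values: without KO replicate 3, Rps27l was at 0.23 and Rpl7 at 0.01, and without WT replicate 2, Rpl22l1 was at 0.21. Under the exonic length and GC offset Rps27l was at 0.07 and Rps27 at 0.16. No paralog or partner passed the test, and the difference between paralog and partner was not tested. The partners of the copies that had too few counts were at log2 differences of 0.18 (Rpl3), 0.26 (Rpl10) and 0.58 (Rpl39), and Rps4x, whose processed copy Rps4l is annotated as a pseudogene, was at 0.17.

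Log2 differences between KO and WT fell with gene length across all genes, and ribosomal protein genes are short. Among the other genes tested, the median log2 difference was 0.26 in the 280 genes with a coding length up to 300 bases. It was 0.18 from 301 to 450 bases, 0.13 from 451 to 600, 0.08 from 601 to 900, 0.03 from 901 to 1500, -0.04 from 1501 to 3000 and -0.14 in the 1941 genes over 3000 bases. Members were above the other genes in each of the 5 bins that held any, with medians of 0.60 (10 members), 0.38 (26), 0.29 (18), 0.30 (19) and 0.19 (2). Within the members, the log2 difference was larger for shorter coding lengths (Pearson r = -0.47, Spearman rho = -0.59, n = 75 genes of the same 6 libraries, given as a description). It was also larger for lower mean CPM (r = -0.59, rho = -0.46), and not related to GC content (r = 0.09, rho = 0.10). With a per-library offset fitted on exonic length and GC content, no member passed the edgeR test (17 at an unadjusted p under 0.05), the median was 0.19 and 68 of 75 members were positive. With an offset on coding length and GC content, an alternative chosen after the data were seen, no member passed either (11 at an unadjusted p under 0.05), the median was 0.16 and 69 were positive. Under these offsets 112 (exonic) and 145 (coding) genes of all kinds passed, and the median over all genes was -0.02 in each fit. The shares of all genes that were positive or had an unadjusted p under 0.05 were not counted under the offsets. The members' counts in these fits are therefore given without that background. What sets the trend with length in these libraries was not tested.

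**Figure D4:**
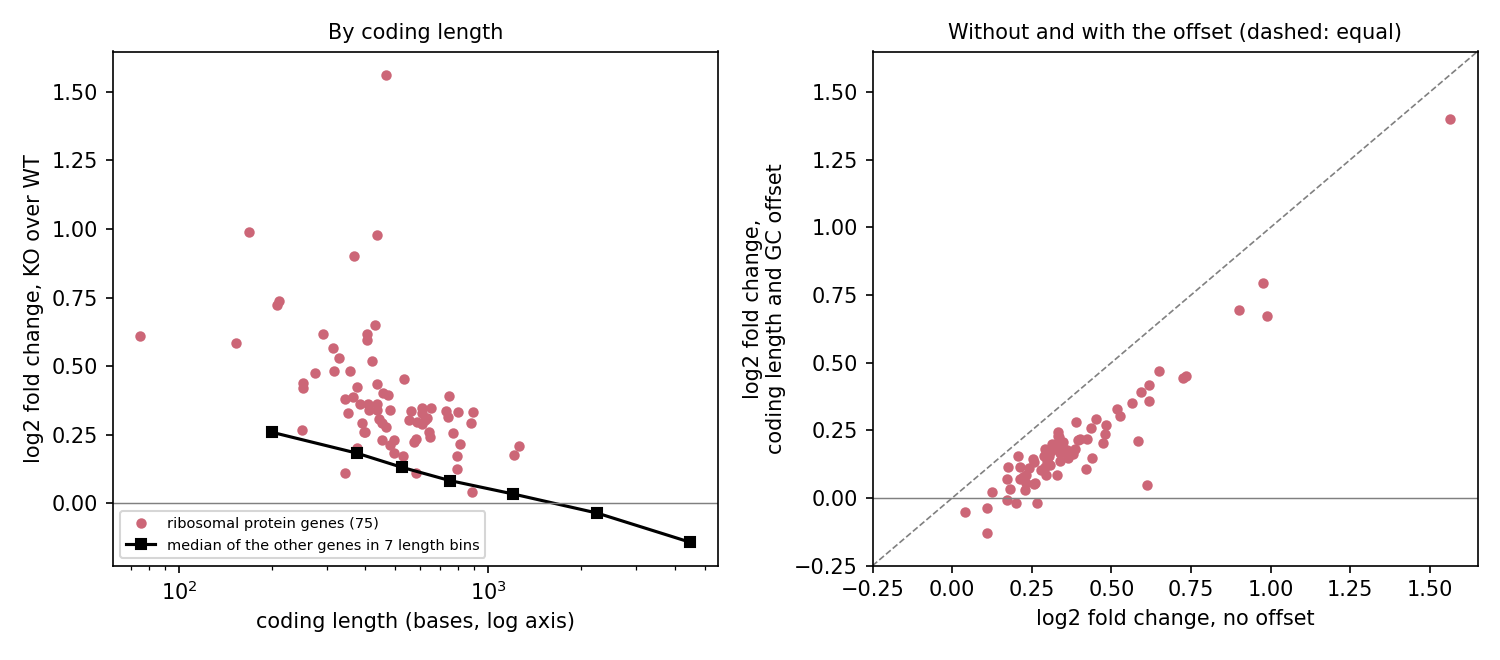
Left, log2 fold change (KO over WT) of each member (red points) against coding length in bases on a log axis, with the median of all other tested genes in 7 length bins (black squares and line); right, the members' log2 fold changes without (x axis) and with (y axis) an offset for coding length and GC content, with the dashed line marking equal values. Members lie mostly above the black line, which falls from 0.26 to -0.14, and with the offset their median moves from 0.34 to 0.16.

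Genes that work with the ribosome were counted in the same fit, as context and with no test of the lists. Of all 15191 genes tested, edgeR called 221 (1.45%), DESeq2 598 and limma-voom 208. By edgeR, 2221 genes had an unadjusted p under 0.05. Of 8 ribosomal protein genes that the symbol rule leaves out, 0 passed, 4 had an unadjusted p under 0.05, the median log2 difference was 0.30, and all 8 were positive. Rpl36al was their lead, at 58.6 and 86.2 CPM with a log2 difference of 0.56 ± 0.16 (edgeR adjusted p = 0.0996). DESeq2 called 1 of the 8 and limma-voom 0. Medians of the translation factor lists were nearer to 0, in genes that are longer (median coding lengths of 1173 bases for the elongation and 1102.5 bases for the initiation factors, against 391.5 bases for the 8 ribosomal protein genes above). The 9 elongation factors and other TOP mRNAs had 0 called, 1 at an unadjusted p under 0.05 (Eef1b2, 0.28) and a median of 0.16. Eef1a1, which brings aminoacyl-tRNA to the ribosome, was at 5251 and 5369 CPM in WT and KO lungs, a log2 difference of 0.03 ± 0.12. The 28 initiation factors had 0 called, 3 at an unadjusted p under 0.05 (Eif3k led, at 0.32) and a median of 0.10. For both lists DESeq2 and limma-voom also called 0.

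Factors that build ribosomes included 1 gene that passed, of 43 tested, against 1.12% of all genes called higher. Fbl, the nucleolar methyltransferase fibrillarin, was at 31.0, 32.3 and 33.6 CPM in WT and 43.6, 59.7 and 64.5 CPM in KO libraries. The WT libraries were nearly equal and all KO libraries were above them. Fbl rose by 0.79 ± 0.15 on the log2 scale (edgeR adjusted p = 0.0266) and was the 1 gene called of 43 assembly factors, whose median was 0.18. Its call held under the exonic and coding offsets (adjusted p = 0.0362 and 0.044) and was lost without WT replicate 1, WT replicate 2, KO replicate 2 or KO replicate 3 (adjusted p = 0.124, 0.116, 0.156 and 0.127). The fits without these libraries called only 24 to 40 genes of all kinds. The 14 genes of the RNA polymerase I machinery, which transcribes ribosomal RNA, had 0 called by edgeR, DESeq2 or limma-voom, 1 at an unadjusted p under 0.05 (Polr1d, 0.39) and a median of 0.17. Median coding lengths were 1482 bases for the assembly factors and 1330.5 bases for these 14 genes, longer than in the translation factor lists. Coding length thus did not order the medians of these lists.

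The regulators had a median near 0. Of 17 genes of mTORC1, LARP1 and MYC, 0 were called by edgeR, DESeq2 or limma-voom, 1 had an unadjusted p under 0.05 (Mlst8, 0.66 ± 0.28, edgeR adjusted p = 0.291) and the median was 0.02. The median coding length of these 17 genes was 1362 bases. Of 10 p53 response genes (median coding length 793.5 bases), edgeR called 0, DESeq2 1 and limma-voom 0. In that list 2 genes had an unadjusted p under 0.05, led by the pro-apoptotic Bbc3 (0.77 ± 0.18, edgeR adjusted p = 0.0571), and the median was 0.03, or -0.06 under the coding offset. The 7 small nucleolar RNA host genes tested, several of which are themselves TOP transcripts, had 0 called by edgeR and limma-voom and 1 by DESeq2. Their median was 0.42, and Gas5, the 1 with an unadjusted p under 0.05, was at 43.9 and 61.6 CPM (log2 difference 0.49 ± 0.13, edgeR adjusted p = 0.095).

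Mitochondrial ribosomal proteins, which form the separate ribosome of mitochondria, had 1 of 76 called and a median of 0.19. Over all genes tested 1.45% were called, so 1 call says little about this list. Mrpl52 rose from 28.7, 26.9 and 23.9 CPM in WT to 40.3, 41.4 and 47.1 CPM in KO libraries, which is 0.70 ± 0.14 on the log2 scale (edgeR adjusted p = 0.0325), with no overlap between the groups. This call was lost under both offsets (adjusted p = 0.219 and 0.178), and without any single library other than KO replicate 1 (adjusted p from 0.0725 to 0.139). The fits without those libraries called 24 to 222 genes of all kinds. Under the coding offset the list's median was 0.03.

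Summed RNA of some cell type markers did not overlap between the groups, while other sums did. Few single genes were called, with 1.12% of all genes tested called higher and 0.336% lower, and the lists were not tested. Summed over 6 pan-leukocyte genes, the level was 1203 to 1499 CPM in WT and 1507 to 1941 CPM in KO libraries, with 2 of the 6 genes called higher. Neutrophil markers summed to 157 to 255 CPM in WT and 305 to 478 CPM in KO libraries (2 of 5 tested higher, and Ly6g at 0 in all WT libraries). T cell markers summed to 101 to 159 CPM in WT and 145 to 207 CPM in KO libraries, which overlapped (0 of 8 called). B cell (90.2 to 154 against 137 to 211 CPM), alveolar macrophage (322 to 524 against 494 to 657 CPM) and endothelial markers (5659 to 7321 against 5453 to 6664 CPM) overlapped as well, with 0 called. Markers of club cells summed to 407 to 949 and 1560 to 3484 CPM (1 of 3 called higher), and those of cell cycle to 177 to 217 and 218 to 337 CPM (0 of 7 called, median log2 difference 1.03). Platelet markers went the other way, from 44.6 to 67.7 CPM in WT to 12.5 to 24.2 CPM in KO libraries (1 of 5 called lower). Alveolar type 2 (11992 to 13574 against 11583 to 14375 CPM) and type 1 markers (3089 to 3882 against 3142 to 3758 CPM) overlapped between the groups and showed lung tissue in every library. Keratin genes and Epcam, taken as markers of epithelium and carcinoma, summed to 360 to 415 and 407 to 430 CPM, which overlapped. Krt14 was at 0 in WT replicate 2 and Krt5 at 0 in WT replicate 3 and KO replicates 1 and 2. Cd274, the gene of PD-L1, was at 62.5, 53.5 and 74.2 CPM in WT and 97.3, 197 and 300 CPM in KO libraries, but host cells keep this gene, so it does not check the labels. Fibroblast markers summed to 3164 to 3618 CPM in WT and 2398 to 3326 CPM in KO libraries, which overlapped (1 of 5 called lower). KO replicate 3, the highest library for most members, also had the highest sums of erythroid markers (332 CPM, against 156 to 201 in the other libraries) and of cardiac muscle markers (49.4 CPM, against 22.6 to 34.4), with 0 called in either list. Its sums of neutrophil (478 CPM), T cell (207 CPM), cell cycle (337 CPM) and keratin and Epcam genes (430 CPM) were the highest too. In the remaining marker lists another library was highest. The part of cell composition in the ribosomal protein differences was not tested.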

How the data were processed

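The authors deposited raw read counts by Ensembl gene identifier, from paired-end reads aligned to mm10 with STAR 2.5 and counted with HTSeq 0.6.1, per the series' design text and the submitters' processing notes. Strand setting, counting mode, filters and annotation release: not given in the sources used here. Symbols, biotypes, coordinates (GRCm38, counted from 1) and lengths came from GENCODE M21 by Ensembl identifier. Counts were analysed with edgeR 4.0.16 (R 4.3.3, limma 3.58.1) by the quasi-likelihood F-test, KO minus WT, with TMM scaling, filterByExpr at a minimum count of 10, robust=TRUE and group as the only term. P-values are two-sided and adjusted by Benjamini-Hochberg over 15191 genes. The SE of a log2 fold change is its size over the root of its F value. Alternatives were other scalings and filters, DESeq2 1.42.0, limma-voom, robust=FALSE, other thresholds, leaving out each library, the replicate number as a block, and offsets for length and GC content (natural splines, 5 df each).

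Named members were the 5 with the smallest p, paralogs with their partners, the 5 highest and 3 lowest per kilobase of exons, and those at the count limit. Of each list the gene with the smallest p and those called were named. Others were added after their values were seen (Rpl13a, Rps24, Rps29, Rpl23a, Rpl38, Rps28, Rpl6, Rps7, Rps26, Rps6, Rps19, Rpl5, Rpl11, Rps2, Eef1a1). Levels are given per coding length because annotated exons of these genes include long transcripts, although very short coding lengths raise this measure. The members and lists were chosen with earlier results of these data known. The procedure was tested on simulated data. Within a group, pairs of libraries had a chi-square of 15.4 to 28.8 per degree of freedom, far above sampling noise, and each counted as 1 replicate. The labels do not say that each library came from 1 mouse, so the p-values cover only the spread among these libraries, which may be technical.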

Additional observations from a re-analysis of the deposited data

How the results depend on the processing

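Against 2 members called of 221 genes, the members called numbered 25 (of 803 genes) with no filter on low counts, 11 (of 598) with DESeq2, 4 with limma-voom (of 208), 0 (of 112) with the exonic length and GC offset, 0 (of 145) with the coding length and GC offset, 0 (of 25) at a threshold of 0.01 and 9 (of 475) at 0.1. They were 2 or 3 (of 211 to 229 genes) under the RLE, upper-quartile, library-total and restricted TMM scalings, the CPM filter and robust=FALSE. Leaving out 1 library gave 0 to 17 members called, and 24 to 578 genes of all kinds. No setting called a member lower. The members' median log2 fold change was 0.34, moved to 0.16 under the coding offset, and ranged from 0.23 to 0.42 with a library left out. The share of counts in the members was 0.43 to 0.81 percentage points higher in KO with a library left out. Signs turned for Rpl6 (-0.043 with the exonic and -0.052 with the coding offset, and from -0.036 to 0.13 with a library left out), Rps7 (-0.056 and -0.038 with the offsets, and from -0.013 to 0.21 with a library left out) and Rps26 (-0.11 and -0.13 with the offsets). They turned for Rps4x (-0.031) and Rps3a1 (-0.18) under the exonic offset. The causes of these changes were not tested. All these fits rest on at most 3 libraries a group.

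The replicate number as a block gave 14 members called (of 405 genes), and with the exonic offset 2 (Rpl23a and Rpl37, of 252 genes). The blocked fit with the offset turned the signs of Rpl6 (-0.046), Rps7 (-0.059), Rps26 (-0.10), Rps4x (-0.039) and Rps3a1 (-0.18). Same-numbered libraries hardly deviated together (correlations of 0.04, 0.01 and 0.02), and not every library correlated best with its own number, so the numbers were not treated as a pairing.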

Other observations

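Annotated pseudogenes of the family carried counts that the symbol rule leaves out. Of 250 pseudogene rows with an Rpl or Rps name, 130 had counts and 32 were tested, with 0 called by edgeR, DESeq2 or limma-voom, 4 at an unadjusted p under 0.05 and a median log2 difference of 0.32 (-0.02 under the exonic offset). Rps2-ps10 was at 280, 249 and 283 CPM in WT and 270, 336 and 384 CPM in KO libraries, and its parent gene Rps2 was at 171, 143 and 144 CPM in WT and 150, 179 and 230 CPM in KO libraries. The log2 differences were 0.29 ± 0.13 and 0.29 ± 0.14. Which of the 2 rows the reads belong to cannot be told apart from the counts. Rpl38-ps2 had the smallest p of the pseudogenes (0.76 ± 0.22, edgeR adjusted p = 0.12), beside 0.74 for Rpl38. Among pseudogenes without that suffix, Rps4l, a processed copy of Rps4x, did not follow the members: it had 348, 287 and 482 counts in WT and 258, 180 and 545 counts in KO libraries, with KO replicate 2 lowest of all. Rpl6l had 6, 7 and 9 counts in WT and 18, 25 and 20 counts in KO libraries, while Rpl6 had the smallest difference of the members. Rpl24 was almost without counts (7, 12 and 16 in WT and 12, 7 and 0 in KO libraries), although it encodes a standard protein of the large subunit.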
